A study of Mus musculus with 11 samples.

Results

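Mouse chromosome 12, which carries the immunoglobulin heavy chain locus Igh near its distal end, was read in genomic DNA of 11 mammary tumours, each set on an Agilent genomic array against the liver of its own animal. The probes were all genomic probes that the array places on chromosome 12 of build mm9, 7146 of 170305 probes in all. They run over chr12:3102541-121252543, and the 177 of them at chr12:114413746-117285162 make up the Igh interval (2.87 Mb), which was also read against the 692 probes within 5 Mb on either side of it. All 11 animals carried the activated Pik3ca H1047R mutation on a mixed FVBN/Bl6 background, and each liver came from the same animal as its tumour. Whether the allele was active in liver, the promoter or Cre line behind the mutant, the age of the animals and the cellularity of the tumours are not given in the sources used here. Tumours 1 to 11 form 1 group (n = 11 animals, 1 array each), and the tumour DNA was labelled with Cy5 and the liver DNA with Cy3 on every array. A value is the log2 ratio of tumour over liver minus the median of its array, so that 0 is the middle of that tumour's own genome. Because the DNA came from bulk tissue, a loss in all cells at a small shift and a larger shift in a share of the cells cannot be told apart.

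Igh holds the constant region genes of antibody heavy chains at its proximal, low-coordinate end and a long array of variable gene segments that stretches towards the telomere. In B lymphocytes the RAG recombinase joins variable, diversity and joining segments at recombination signals and deletes the DNA between the joined segments, so B cell DNA differs from that of other cells there. Chromosome 12 also carries Akt1, a kinase activated by PI3K signalling, the RAS exchange factor Sos2, several DNA repair genes and an imprinted cluster between Dlk1 and Dio3.

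The array names no probe after an Igh gene segment. It assigns 111 of the 177 Igh probes to the transcript model ENSMUST00000109714, 26 to AK136471 and 8 to AK007918. The probes below are those on which the Igh results turn. The last probe inside the loss of tumour 1 lies at chr12:115252183-115252236 and the next one on the array, where its ratio was back above 0, at chr12:115298666-115298715. Within the stretch that was lowest in tumour 8, the probes with the lowest means over the 11 tumours lie at chr12:116852363-116852422 and chr12:116932272-116932331. The probe at chr12:117085890-117085949 lies in the same stretch but was near 0 in tumour 8 and in most other tumours, tumour 7 excepted. Capitals mark the recombination signal heptamer CACAGTG or its reverse complement CACTGTG, which was searched on both strands.
A_67_P02611487: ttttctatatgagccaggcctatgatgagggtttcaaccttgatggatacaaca
A_67_P18182238: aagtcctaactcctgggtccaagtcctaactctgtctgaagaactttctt
A_67_P07760550: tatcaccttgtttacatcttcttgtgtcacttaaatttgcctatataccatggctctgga
A_67_P18189697: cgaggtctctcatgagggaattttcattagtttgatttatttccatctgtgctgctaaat
A_67_P18190477: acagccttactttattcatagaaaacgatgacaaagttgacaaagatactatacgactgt
A_67_P18178609: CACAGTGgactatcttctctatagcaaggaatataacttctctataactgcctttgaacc
A_67_P18183769: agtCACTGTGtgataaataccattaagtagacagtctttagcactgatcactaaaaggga
The last pair, at chr12:114540162-114540221 and chr12:115647891-115647950, are the 2 Igh probes that held the heptamer, 1.13% of the 177 against 0.829% of all 170183 probes outside chromosome Y. None of the Igh probes shared a run of 20 bases with another Igh probe. Their mean GC content was 36.9%, against 36.7% over all probes, and the median distance between neighbouring Igh probes was 10455 bases.

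Arrays differed in noise. The SD of the noise between neighbouring autosomal probes was lowest in tumour 8 (0.13), had a median of 0.18 and was highest in tumour 9 (0.55), next to tumour 11 (0.51). The share of chromosome 12 spots not well above background ran from 0.0687% in tumour 1 to 12.3% in tumour 9. Over autosomal probes tumour 11 correlated negatively with tumours 4, 5, 9 and 10 (r of -0.60, -0.61, -0.65 and -0.32), although the labels give all arrays the same dyes. Its labelled direction was kept, and values with its ratios turned are given where the call or the count changed. In tumour 2 the deposited LogRatio was 0 at 111 chromosome 12 spots, where the processed signals were used.

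The first comparison asked whether chromosome 12 as a whole differed between tumour and liver. Tumour 8 had a mean of -0.31 over its chromosome 12 probes, the lowest of its 19 autosomes. Tumours 2, 3 and 6 had -0.12, -0.14 and -0.13, and in each of them chromosome 12 ranked among the 3 lowest autosomes. The other 7 tumours lay between -0.04 in tumour 9 and 0.03 in tumour 7. So 1 tumour lay far below 0, 3 moderately below it and 7 around it, among them tumour 1, in which only the distal part was low. The mean over tumours was -0.07 ± 0.10 (SD, n = 11), with 8 of 11 tumours below 0 (exact two-sided sign-flip permutation test, p = 0.0215). Adjusted over 20 chromosomes the p was 0.107, above the threshold of 0.05, and over the alternatives tried it ran from 0.0391 without tumour 7 to 0.313 without tumours 1 and 8. It was 0.0488 with tumour 11 turned and 0.0439 when arrays were centred on the mode of their ratios. Chromosome 12 had the third lowest mean of the 20 chromosomes. The arrays lie on 3 slides, and the within-slide means were -0.19 for slide 1 (tumours 2, 3 and 8), -0.003 for slide 2 (tumours 4, 7, 9 and 11) and -0.04 for slide 3 (tumours 1, 5, 6 and 10), so 3 of the 4 low tumours shared a slide.

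**Figure D1:**
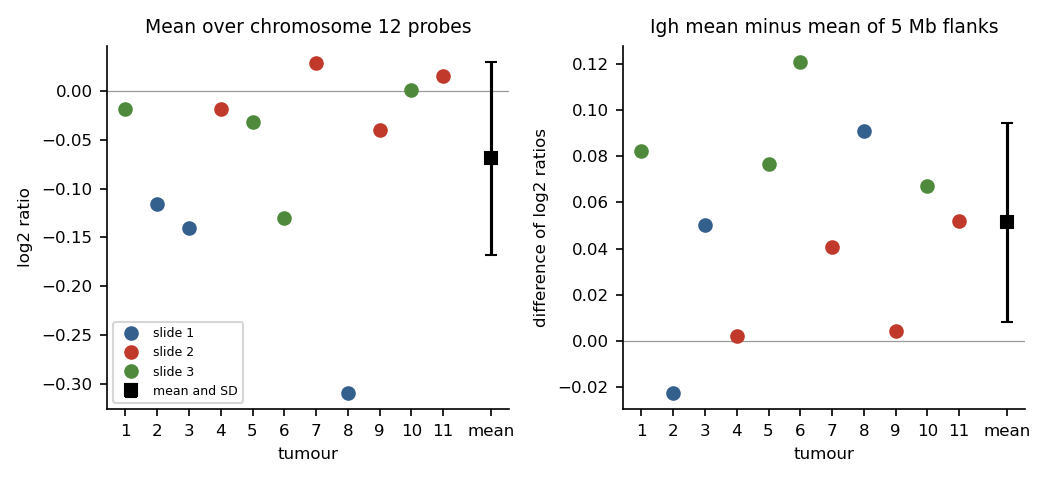
Left, mean log2 ratio over the 7146 chromosome 12 probes of each tumour; right, the Igh mean minus the mean of the 5 Mb flanks in the same tumours. Points are tumours coloured by slide, and the black square with its bar is the mean and SD over the 11 tumours; tumour 8 is lowest on the left at -0.31, and 10 of 11 tumours lie above 0 on the right.

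The chromosome was then divided into bins of 1 Mb, of which 113 held at least 5 probes. In tumours 3, 6 and 8 all 113 bins were below 0, and in tumour 2 it was 110 of them. The bins of tumour 8 lay between -0.38 and -0.17, those of tumour 3 between -0.21 and -0.05 and those of tumour 6 between -0.19 and -0.03. By contrast, 26 bins of tumour 7 and 27 of tumour 1 were below 0. The mean over the 11 tumours was below 0 in each of the 113 bins, from -0.14 to -0.01, with a median of -0.06 against -0.01 for all bins of the genome. A limma fit over 2538 bins of all chromosomes, adjusted by Benjamini-Hochberg, called 1 of the 113 bins lower (0.885%, against 3.47% of all bins) and 0 higher (against 9.93%). At an unadjusted p under 0.05, 40 of the 113 bins were lower and 0 higher, and over the genome 628 of 2538 bins passed that limit in either direction. The bin that passed, from 107 to 108 Mb, had a mean of -0.14 ± 0.14 (SD, n = 11; adjusted p = 0.0202) and was below 0 in 9 of 11 tumours, lowest in tumour 1 at -0.41 and highest in tumour 7 at 0.05. The number of bins called lower was 15 without tumour 11, 16 with it turned, 3 without tumour 1 and 0 without tumour 8.

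**Figure D2:**
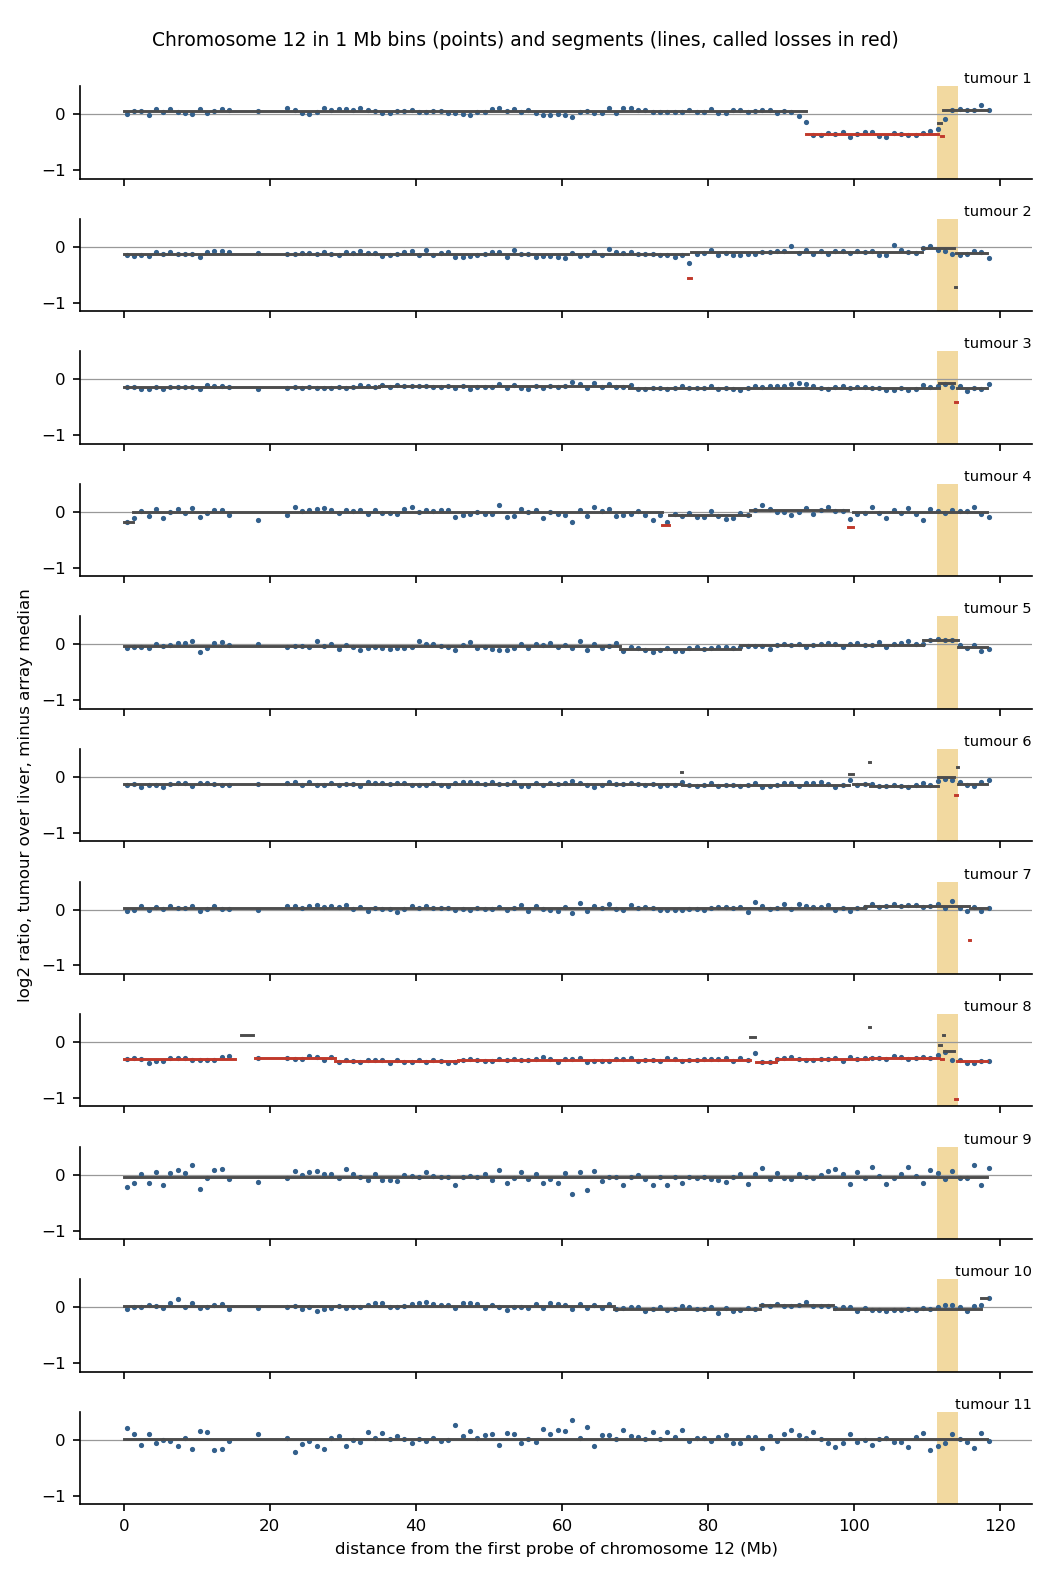
Mean log2 ratio of 1 Mb bins (points) and of segments (lines, called losses in red) against the distance from the first chromosome 12 probe, 1 panel for each of the 11 tumours, with the Igh interval shaded. Tumour 8 is low over the whole length, tumour 1 drops to -0.35 in its distal part and returns above 0 within Igh, and tumours 2, 3 and 6 run slightly below 0 throughout.

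Losses were read per array as segments of at least 10 probes with a mean of -0.20 or lower. There were 18 such losses in 7 tumours and no gain in any. Chromosome 12 was 1 of 3 chromosomes with losses and no gains, besides 7 and 18, and 10.9% of its probe values over all tumours lay in losses. Chromosomes 4 and 7 had 20 losses each and chromosome 6 had 19. The share of probe values in losses was higher on chromosomes 7 (19.7%), 10 (18.5%), 13 (14.8%), 9 (13.5%) and 6 (13.4%). Tumour 8 had 10 of the 18 losses, which together covered 98.2% of its chromosome 12 probes, compared with 20.8% of its autosomal probes. Outside Igh the losses of tumour 8 had means from -0.35 to -0.28, so the chromosome was lowered by a nearly uniform amount. By tumour, the share of chromosome 12 probes in losses was 18.2% in tumour 1 against 20.2% of its autosomal probes, 2.04% in tumour 4 against 2.01%, 0.574% in tumour 2 against 0.970%, 0.196% in tumour 3 against 0.411% and 0.140% in tumour 6 against 0.543%. Tumour 7 had 0.140% of its chromosome 12 probes in losses but 25.7% of its autosomal probes. No loss of the chromosome was called in tumours 5, 9, 10 and 11, whose autosomal shares were 2.26%, 0%, 0% and 0.121%. Only tumour 8 thus had a share on chromosome 12 well above that of its own genome. Gains were absent from chromosome 12 although they covered 6.08%, 21.0%, 11.6%, 5.23%, 0%, 9.72%, 5.89%, 14.6%, 0%, 0% and 0.193% of autosomal probes in tumours 1 to 11. The noise SD of a single probe exceeded the threshold of 0.20 in tumours 7 (0.22), 5 (0.24), 4 (0.28), 11 (0.51) and 9 (0.55), of which tumours 4 and 7 had called losses. Of planted losses of 10 probes at -0.6, 0 of 10 were found in tumours 9 and 11 and 38 of 45 in the other 9 tumours. At -0.3 it was 0 of 10 and 9 of 45, and for 100 probes at -0.3 it was 1 of 10 and 45 of 45. The lack of calls in tumours 9 and 11 therefore does not show that such losses were absent. The counts depended on the segmentation: a lower penalty gave 75 losses and 10 gains, a higher one 6 losses and 0 gains, and normexp background correction 10 losses and 1 gain.

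Tumour 1 had a single long loss, chr12:96464269-114499251 (18.0 Mb, 1276 probes), at -0.35 with an SD of 0.19 between probes. The 5420 probes proximal to it had a mean of 0.06. Its proximal edge fell in a gap of 40.6 kb between neighbouring probes, in a stretch without named genes. The nearest named gene inside the loss was Flrt2, which encodes a fibronectin leucine-rich transmembrane protein. Over the same 1276 probes tumour 8 had -0.29, tumour 3 -0.15 and tumour 6 -0.14, and the 10 other tumours had a median of -0.03 and a highest value of 0.05 in tumour 7. The loss therefore lay apart from every tumour except tumour 8. The probes before 61 Mb exceeded those after it (Igh left out) by 0.13 in tumour 1, while in the other 10 tumours the difference lay between -0.01 and 0.03. Over all 11 tumours it was 0.02 ± 0.04 (SD, n = 11), above 0 in 6 of the 11, and did not pass (p = 0.139, same exact test).

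Short losses outside Igh were found in tumours 2, 4 and 7. That of tumour 2, chr12:80305443-80684720, had a mean of -0.55 over 41 probes and included Rdh12, a retinol dehydrogenase gene, and Zfyve26 among the genes it overlapped. In tumour 2 the mean of Zfyve26 over 7 probes was -0.41, and the single probe of Rdh12 was at -0.84. The probe values of the loss were spread, from -1.18 to 0.92 with a median of -0.71, and 28 of the 41 were below -0.6 while 5 were above 0. In the other 10 tumours the same probes averaged between -0.33 in tumour 8 and 0.06 in tumour 1, so the low value was seen in tumour 2 beyond the level of its own chromosome. The loss of tumour 7, chr12:118842753-118924602, had 10 probes inside Rapgef5, an exchange factor for RAP proteins, with a mean of -0.54 and an SD of 0.17. The next lowest tumour there was tumour 8 at -0.41, followed by tumour 3 at -0.27, and the highest was tumour 1 at 0.02. Over all 22 probes of Rapgef5 the mean of the 11 tumours was -0.11 ± 0.14 (SD).

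Tumour 4 had a loss of -0.24 at chr12:76741696-77675818 (102 probes), which holds Esr2, the gene of oestrogen receptor beta, and one of -0.28 at chr12:102295914-102934675 (44 probes), which holds Smek1 and Catsperb. At these places tumour 9 also was low without a call, at -0.26 and -0.36, and tumour 11 was high, at 0.23 and 0.34. Tumours 4 and 9 correlated at r = 0.80 and tumours 4 and 11 at r = -0.62 over all 7146 chromosome 12 probes, and the 3 arrays share a slide. The part of this shared pattern in the 2 calls of tumour 4 was not tested. Normexp background correction moved the second of them to -0.18.

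Inside the loss of tumour 8, 3 short stretches outside Igh were raised. The stretch chr12:19146836-20851208 (6 probes) was at 0.13, chr12:88825791-89561622 (10 probes) at 0.10 and chr12:105048428-105192170 (5 probes) at 0.26. They were chosen after the values of tumour 8 were seen. In the first of these stretches the other tumours ran from -0.05 in tumour 11 to 0.48 in tumour 9, all but tumour 11 above 0. In the stretch at 105 Mb, which ends in Serpina1e, an alpha-1-antitrypsin gene of a family of near-identical copies, tumours 2, 3 and 6 had 0.25, 0.27 and 0.26, tumour 10 had 0.01 and tumour 11 had -0.58. In the stretch chr12:88825791-89561622 tumours 2, 5, 9 and 10 were below 0, at -0.03, -0.13, -0.13 and -0.11. The others there ran from 0.01 in tumour 1 to 0.32 in tumour 11. Raised values in the first stretch and in that at 105 Mb were thus shared by tumours with and without a loss of chromosome 12. For the stretch chr12:88825791-89561622 this held in part of the tumours only. A probe in near-identical copies cannot be assigned to 1 copy, so such values are uncertain. The mean GC content of the 3 stretches was 43.6%, 37.2% and 43.4% in order, against 36.8% over chromosome 12. The part of base composition in their values was not tested.

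The next comparison set Igh against its flanks within each tumour. In tumour 8 Igh had a mean of -0.22 and its flanks -0.31, and in tumour 6 the values were -0.02 and -0.14. In tumour 1, where the loss ended inside the interval, Igh had -0.08 and its flanks -0.16. The difference, Igh minus flanks, was highest in tumour 6 at 0.12, followed by tumour 8 at 0.09, tumour 1 and tumour 5 at 0.08 each, tumour 10 at 0.07, tumours 3 and 11 at 0.05 each and tumour 7 at 0.04. It was 0.002 in tumour 4, 0.004 in tumour 9 and -0.02 in tumour 2. Igh thus was a little above its surroundings in most tumours, and below them in tumour 2 alone. The mean difference was 0.05 ± 0.04 (SD, n = 11), and 10 of the 11 values were positive (exact two-sided sign-flip permutation over tumours, p = 0.00488, where 0.000977 is the smallest p that 11 tumours allow). Within slides it was 0.04, 0.02 and 0.09. With tumour 11 turned it was 0.04 (p = 0.0293), and against the distal flank alone 0.04, with a p of 0.186 that no longer passed. The interval as a whole was not lower than its surroundings in these tumours.

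Igh was not uniform. When it was divided at the segment ends of tumour 8 into 7 blocks, the block means of that tumour ran from -1.02 to 0.14. The lowest was the sixth, chr12:116840011-117123306 (0.283 Mb, 10 probes assigned to AK007918 and AY182512), near the distal end. It was called a loss at -1.02 in tumour 8, at -0.32 in tumour 6, and with 4 more probes at -0.41 in tumour 3. In tumour 2 a segment of 7 of these probes stood at -0.71 but had too few probes for a call. Over the same 10 probes, the means of tumours 1 to 11 were -0.01, -0.54, -0.44, -0.06, 0.01, -0.32, -0.07, -1.02, -0.04, -0.05 and 0.24. The 4 low tumours were also the 4 with the lowest chromosome 12 means, and the other 7 lay between -0.07 and 0.24. Tumours 2, 3 and 8 are all the arrays of slide 1, so for them low block and slide cannot be told apart. Tumour 6 lies on slide 3. Against its own flanks the block was at -0.72 in tumour 8, -0.46 in tumour 2, -0.29 in tumour 3 and -0.18 in tumour 6, so it was lower than the rest of the chromosome in all 4. These blocks were drawn from tumour 8, so its values are a description, and no test was made over the tumours.

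Probe by probe, 9 of the 10 probes of this block were below the flank mean in tumours 3, 6 and 8, and 8 of them in tumour 2. In the other tumours it was 7 in tumour 4, 6 in tumours 7 and 10, 5 in tumours 5 and 9 and 3 in tumours 1 and 11. In tumour 8 the 10 probes ran from -1.38 to 0.07 with a median of -1.17, and 8 of them were among the 10 lowest of its 177 Igh probes. In tumour 6 it was 6 of them, and in tumours 2 and 3 it was 5. A_67_P18190477, printed above, was above the flank mean in all 4 of these tumours, with 0.07 in tumour 8, 0.06 in tumour 6, 0.11 in tumour 3 and 0.01 in tumour 2. Tumour 2 had a second such probe, A_67_P18190594, at -0.02. In tumour 7, by contrast, A_67_P18190477 was the lowest of the block, at -1.08. A_67_P07760550 had -1.34 in tumour 8, -0.91 in tumour 2, -0.76 in tumour 3 and -0.48 in tumour 6, but also -1.06 in tumour 9, -0.46 in tumour 5 and 1.09 in tumour 11. That probe alone therefore does not separate the 4 tumours, which were themselves picked out by the block mean. A_67_P18189697 had -1.32 in tumour 8, -0.87 in tumour 2, -0.74 in tumour 3 and -0.43 in tumour 6, against -0.71 in tumour 9 and 0.64 in tumour 11, so it did not separate them either. By the array's names, the 8 probes of AK007918 averaged -1.02 in tumour 8, -0.62 in tumour 2, -0.43 in tumour 3 and -0.32 in tumour 6, and the 5 probes of AY182512 -0.69, -0.31, -0.35 and -0.14. The 2 probes of AJ833584, the next name distally, averaged -0.21, -0.27, -0.25 and 0.03 in the same order.

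**Figure D3:**
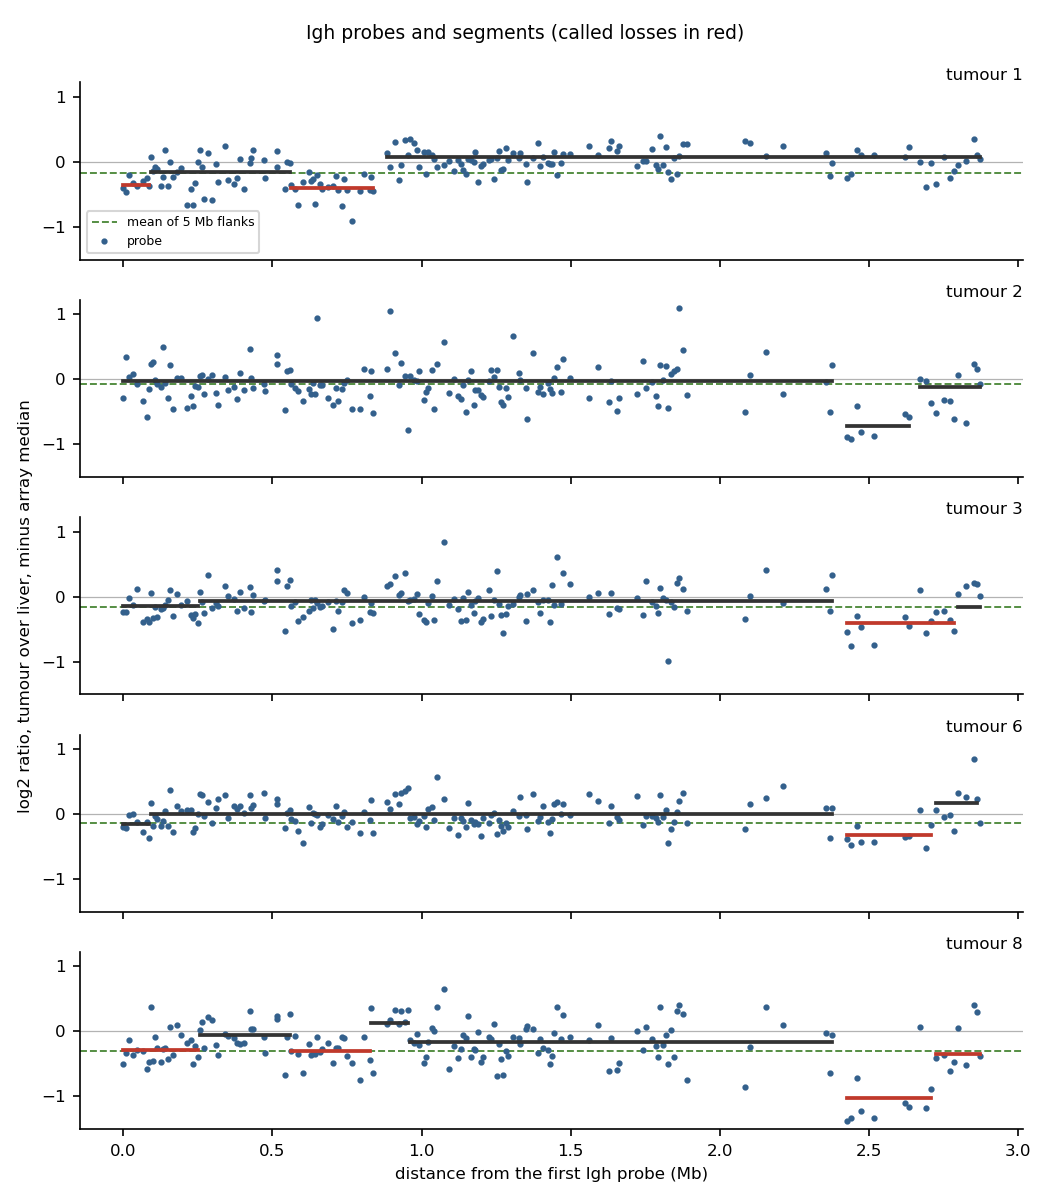
Log2 ratio of each Igh probe (points) and of segments (lines, called losses in red) against the distance from the first Igh probe, for tumours 1, 2, 3, 6 and 8, with the mean of the 5 Mb flanks dashed. Tumour 1 steps up at 0.88 Mb, and tumours 2, 3, 6 and 8 share a low block near the distal end, deepest in tumour 8 at -1.02.

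Other Igh blocks lay above the flanks. The second, chr12:114670169-114971279 (23 probes), exceeded the flanks in all 11 tumours, by 0.26 in tumour 8 and by 0.02 to 0.25 in the other 10, with a median of 0.10. The fifth, chr12:115375660-116789249 (79 probes), exceeded them by 0.14 in tumour 8 and by 0.02 to 0.21 in the other 10. The fourth, chr12:115245547-115368700 (9 probes), was 0.44 above the flanks in tumour 8, 0.33 in tumour 6 and 0.23 in tumour 3, but 0.49 below them in tumour 9 (-0.49) and -0.60 in tumour 11. That block holds the probe at 115306645, which had -1.13, -1.95, -2.67 and -3.10 in tumours 4, 7, 9 and 11, the 4 arrays of slide 2, and 1.05 in tumour 2. The second and the fifth block were thus above the mean pooled over both flanks in every tumour, but not above each flank alone. In tumour 4 they were at 0.010 and 0.009, below its distal flank at 0.021. In tumour 2 the fifth block was at -0.058, below its proximal flank at -0.051. In tumour 1 the second block was at -0.11, below its distal flank at 0.09. In tumour 1 the fifth block, which lies beyond the end of the loss, was at 0.05. That is below its distal flank at 0.09 and above its lost proximal flank at -0.34. The fourth block differed in direction between tumours, and it was not recomputed without that probe.

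**Figure D4:**
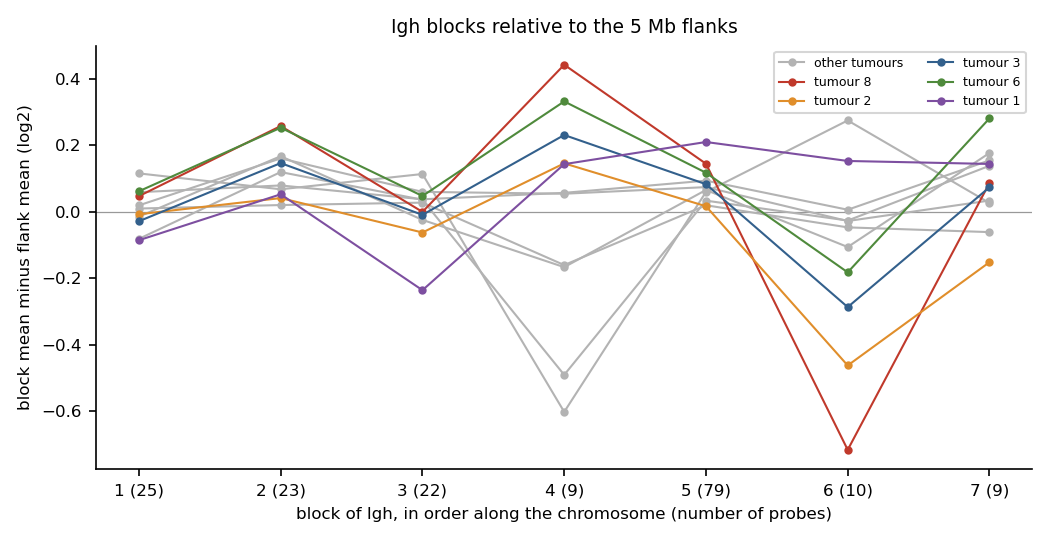
Mean of each of 7 consecutive Igh blocks minus the mean of the 5 Mb flanks, on the log2 scale, with 1 line for each of the 11 tumours and the number of probes of the block in parentheses. Tumours 2, 3, 6 and 8 fall in block 6, with tumour 8 at -0.72, and tumour 1 falls in block 3 at -0.24.

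The profile over the Igh probes was shared among tumours 2, 3, 6 and 8. Over the 177 probes the correlation was 0.76 between tumours 6 and 8, 0.73 between 3 and 8 and 0.66 between 2 and 8. It was 0.66 between 3 and 6, 0.62 between 2 and 3 and 0.49 between 2 and 6. Without the lowest block these were 0.72, 0.68, 0.60, 0.60, 0.57 and 0.41. Over the 692 flank probes they were 0.46, 0.49, 0.25, 0.37, 0.33 and 0.17. In each of these 6 pairs the correlation was thus higher in Igh than beside it, also without the lowest block. This was not particular to these 4 tumours. Tumour 1 had 0.22, 0.29, 0.36 and 0.18 in Igh with tumours 2, 3, 6 and 8, against 0.06, 0.15, 0.32 and -0.05 in the flanks. Tumours 9 and 10 had 0.61 in Igh and 0.51 in the flanks, and tumours 4 and 9 had 0.81 and 0.79. Many pairs went the other way. Among them, tumours 5 and 9 had 0.69 in Igh and 0.76 in the flanks, and tumours 4 and 7 had 0.51 and 0.62. Tumours 7 and 9 had 0.52 and 0.63, and tumours 7 and 8 had 0.16 and 0.36. A higher correlation in Igh was thus not general over the pairs of tumours. These correlations are across probes, which share base composition and, for tumours 2, 3 and 8, a slide, and they are given as a description without a test.

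In tumour 1 the ratio changed level inside Igh. Its long loss ended at 114499251, and 40 probes at -0.15 followed. Then came a second loss of -0.40 at chr12:114977008-115252236 (24 probes), and from 115298666 to the chromosome end 386 probes had a mean of 0.08. The 40 probes hold the second block, which exceeded the flanks in every tumour. In tumour 6 a segment of -0.15 also ended at 114499251, and the next was at -0.002. The part of this shared pattern in the division between the 2 losses of tumour 1 was not tested. The step up at the end of the second loss lay in a gap of 0.0464 Mb, 0.838 Mb from the proximal end of the interval. The 72 Igh probes before the step averaged -0.25 and the 105 after it 0.04, a difference of 0.29. In the other 10 tumours the same difference lay between -0.07 in tumour 11 and 0.03 in tumour 5. Its proximal flank was at -0.34 and its distal flank at 0.09, a difference of 0.44 against a range of -0.10 to 0.05 in the others. The split of the Igh probes was placed at the segment end of tumour 1, so the first difference is a description. The flanks were set without that point, and their difference lay apart in tumour 1 as well. At the printed probes on either side of it, A_67_P02611487 had -0.45 and A_67_P18182238 had 0.14 in tumour 1. The same pair had -0.65 and 0.11 in tumour 8 and -0.52 and 0.15 in tumour 2, so the contrast between these 2 probes alone was not particular to tumour 1.

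Windows of 0.5 Mb, each read against the probes within 5 Mb around it, were tested over all 5028 windows of the genome by limma. Of the 6 windows in Igh, the last of which runs past its distal end, 0 were lower (against 0% of all windows) and 0 higher (against 0.0398%), and 3 were higher and 0 lower at an unadjusted p under 0.05. The window from 116.0 to 116.5 Mb came nearest, at 0.09 ± 0.06 (SD, n = 11; limma, adjusted p = 0.0543), above its surroundings in 11 of 11 tumours. The window from 114.5 to 115.0 Mb had 0.08 ± 0.06 (adjusted p = 0.0913), also in 11 of 11. The windows that hold the lowest block had -0.0001 and -0.03 over the 11 tumours, with tumour 8 at -0.31 and -0.14 and tumour 2 at -0.28 and -0.16. In the first of them tumours 3 and 6 had -0.07 and -0.01, tumour 11 had 0.36 and tumour 1 had 0.15, so tumours lay on both sides of a mean near 0.

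Single probes were tested in the same way over 169715 probes. Of 176 Igh probes with enough values, 3 were called lower (1.70%, against 0.983% of all probes) and 16 higher (9.09%, against 1.59%). At an unadjusted p under 0.05, 18 were lower and 43 higher. Over all 7122 chromosome 12 probes tested it was 721 lower and 753 higher, and over the genome 33983 of 169715 in either direction. The probe with the highest difference, at 114697694, exceeded its surroundings by 0.43 (limma, adjusted p = 0.0132) in 11 of 11 tumours, and A_67_P18182238, the probe just beyond the step of tumour 1, by 0.33 (adjusted p = 0.0103) in 10 of 11. The 3 lower probes, at 116239842, 115001114 and 114499192, differed by -0.48, -0.21 and -0.19, and none of them lies in the lowest block of tumour 8. The counts were 15 lower and 40 higher without tumour 11 and 17 lower and 32 higher with it turned. Without any other single tumour they were 0 or 1 lower and 8 to 13 higher.

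Genes were read as means of the probes that the array assigns to them, and those with at least 3 probes were tested. Of 365 such genes on chromosome 12, limma over 9377 genes called 11 lower (3.01%, against 2.29% of all genes) and 1 higher (0.274%, against 4.6%). Prima1, which encodes the membrane anchor of acetylcholinesterase, ran from -0.51 in tumour 9 to -0.07 in tumour 3 with a median of -0.26. It was below 0 in 11 of 11 tumours, with a mean of -0.25 ± 0.12 (SD, n = 11; adjusted p = 0.0149). Zfyve1, a gene of a protein that binds the lipid made by class III PI3K, had a mean of -0.21 ± 0.17 (adjusted p = 0.0250) and was below 0 in 10 of 11, tumour 11 excepted. The other 9 lower genes had means between -0.20 and -0.15, among them Fbln5, an extracellular matrix gene, Trip11, a Golgi protein gene, Gtf2a1, a general transcription factor gene, and Eml1, a microtubule protein gene. These 4 were named after their values were seen. The gene called higher was BC024416, named after its value was seen, at 0.22 ± 0.22 (adjusted p = 0.0424), which lies in the raised stretch at 20 Mb. Without tumour 11 the number of genes called lower was 74 and with it turned 80, and without any other single tumour between 2 (tumours 2, 3, 4, 6 or 8) and 10 (tumour 9). The median of the 365 genes was -0.07, against -0.01 for all genes.

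Of the 14 measured genes of the PI3K, AKT and MAPK list, 10 had enough probes, and limma called 0 lower and 0 higher, with 1 lower at an unadjusted p under 0.05. That gene, Sos2, had -0.39 in tumour 8, -0.32 in tumour 2 and 0.03 in tumour 1, and a mean of -0.14 ± 0.14 (SD, n = 11; adjusted p = 0.0620). Akt1 had 1 probe, with values from -0.99 in tumour 9 through a median of -0.15 to 1.19 in tumour 11, and was not tested. Hsp90aa1, a chaperone gene with 1 probe, had -0.44 in tumour 1 and -0.34 in tumour 8. The highest of the list was 2610204M08Rik at 0.05 ± 0.27. The list's median of -0.07 was that of chromosome 12 genes as a whole (-0.07).

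The list of DNA repair, chromatin and tumour suppression genes had 21 measured members and 15 tested ones. Limma called 0 of them, with 7 lower and 0 higher at an unadjusted p under 0.05. Over all 365 chromosome 12 genes that count was 93 lower and 1 higher, and over the genome 2156 of 9377 in either direction. Fancm, a DNA translocase gene of the Fanconi anaemia pathway, and Vrk1, a nuclear kinase gene, were lowest, both at -0.19, with SDs of 0.23 and 0.28 (limma, adjusted p = 0.0745 and 0.124). Both were below 0 in 10 of 11 tumours and positive in tumour 11, at 0.33 and 0.49. Vrk1 lies in the only bin that passed. Brms1l was the highest at 0.08 ± 0.15, and the list's median was -0.10.

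Transcription factor, hormone receptor and growth factor genes had 17 measured members, of which 9 were tested and 0 called, with 2 lower and 0 higher at an unadjusted p under 0.05. Mta1, a gene of a chromatin remodelling complex that lies next to Igh, had 2 probes and -0.24 ± 0.19, and Tgfb3, a growth factor gene, 2 probes and -0.18 ± 0.11. Each was below 0 in 10 of 11 tumours. Id2, with 1 probe, ran from -0.47 in tumour 8 to 0.83 in tumour 11. Of the very long genes 11 were measured and tested and 0 called, also 0 at an unadjusted p under 0.05. Their means ran from -0.12 for Nbas and -0.08 for Lrfn5, the next lowest, to -0.04 for Mdga2, a narrow range around the level of the chromosome.

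Of the imprinted Dlk1-Dio3 cluster 4 genes were measured and 2 tested, with 0 called and 0 at an unadjusted p under 0.05. Meg3, a maternally expressed RNA gene, had -0.51 in tumour 1 and -0.30 in tumour 8, a mean of -0.08 and an SD of 0.28. Mirg, with 1 probe, had -0.06 ± 0.39, and Rian had 0.11 ± 0.24. In the serpin clusters 15 genes were measured with at most 2 probes each and none was tested. Their means had the widest range of the lists, from -0.36 for Serpina12, below 0 in 11 of 11 tumours, and -0.28 for Serpina6, to 0.38 for Serpina1e. Among genes beside Igh 15 were measured and 8 tested, with 0 called and 2 lower at an unadjusted p under 0.05. The nearest on the proximal side, 4930427A07Rik (now Tedc1), had -0.07 ± 0.30 over 2 probes. The nearest on the distal side, Zfp386, had -0.30 ± 0.39 over 1 probe.

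**Figure D5:**
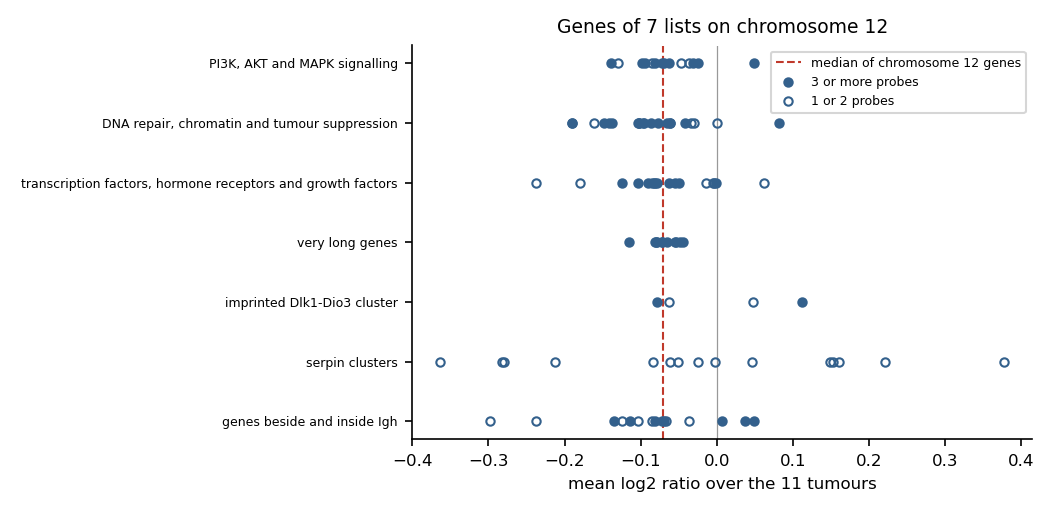
Mean log2 ratio over the 11 tumours of each measured gene of 7 lists on chromosome 12, filled for genes with 3 or more probes and open for those with 1 or 2. The dashed line is the median of chromosome 12 genes (-0.07); most members lie around it, and the serpin genes, with 1 or 2 probes each, spread the widest.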

How the data were processed

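Genomic DNA of 11 tumours and their livers was measured on 2-colour arrays. Per the labels, red (Cy5) is tumour and green (Cy3) liver on every array. The deposited scanner files hold red and green intensity, background-subtracted and dye-normalized (linear) per the file headers. Agilent Feature Extraction 10.5.1.1 and Partek are named in the submitters' processing notes; tumours 4, 7, 9 and 11 carry version 11.0.1.1, per the file headers. The deposited LogRatio is the log10 of red over green. The authors' value table holds log2 ratios of unstated centring and served as an alternative.

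Log2 ratios of the processed signals were averaged per probe without outlier spots and centred on the array median, with no loess. Segments came from exact optimal partitioning of each chromosome. The penalty was 2 × noise variance × ln(170183 probes), a segment held 5 probes or more, and probes further than 4 SD from the running median over 11 probes were set to that limit. A loss or gain needed 10 probes and an absolute mean of 0.2. Single values were tested by exact two-sided sign-flip permutation over tumours. Bins, windows, probes and genes were fitted by limma (intercept, eBayes, two-sided, Benjamini-Hochberg over the genome), and a call required p below 0.05 after adjustment with a mean of 0.1 or more in size. All steps were tested on simulated data.

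The region, lists and named genes were chosen with earlier results of these data known. Named genes were up to 3 per called segment (no longer than 10 Mb, mean at least 0.4 in size), Akt1, the list genes nearest to Igh on both sides, the 2 lowest and the highest of each list, and the lowest called genes, 30 at most. Of 731 gene names on chromosome 12, 480 matched a RefSeq table of GRCm38.p6, used for names only. One gene that the rule names is not reported here. Alternatives covered background, centring, direction of tumour 11, dim spots, segmentation, window sizes, GC content and each tumour left out. The number of arrays limits precision. Tools were Python 3.11.15, numpy 2.4.6, pandas 2.3.3, scipy 1.17.1, numba 0.67.0, matplotlib 3.10.9, R 4.3.3, limma 3.58.1 and statmod 1.5.0.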

Additional observations from a re-analysis of the deposited data

How the results depend on the processing

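The mean of chromosome 12, the difference between its proximal and distal parts and the difference between Igh and its flanks kept their direction under every alternative. Leaving out each tumour in turn gave -0.0786 to -0.0448 for the first. The chromosome mean passed the adjusted threshold with tumour 11 turned (-0.0717), centred on the mode (-0.0866) and without tumour 7 (-0.0786). Igh against the distal flank alone was 0.0372 (p = 0.186). Losses, 18 in the main setting, numbered 75 with a lower penalty, 6 with a higher one and 10 with normexp, and gains, 0 in the main setting, numbered 10 with the lower penalty, 1 with normexp, 1 with a threshold of 0.15 and 3 with a minimum of 5 probes. Leaving out tumours gave 8 to 18 losses and 0 gains. Bins called lower numbered 2 with slide as a random block, 3 without tumours 9 and 11, 16 with tumour 11 turned, 4 in bins of 0.5 Mb and 0 to 15 with a tumour left out, and 2 bins were higher without a minimum of probes. Genes called lower numbered 49 with slide as a block, 58 without tumours 9 and 11, 27 with normexp, 80 with tumour 11 turned, 4 centred on the mode, 25 with a minimum of 1 probe and 2 to 74 with a tumour left out. Without dim spots 1 Igh window was higher; a tumour left out gave 0. In the same order of slide block, without tumours 9 and 11, normexp and tumour 11 turned, Igh probes called lower numbered 9, 16, 5 and 17, and those higher 40, 38, 27 and 32. Without dim spots 1 Igh probe was lower, and with a tumour left out 0 to 15 were lower and 8 to 40 higher. The cause of these changes was not tested. The GC fit and the settings without tumours 1 and 8 and without the lowest Igh segment were chosen after seeing the data. No paired analysis was possible because the tumours form 1 group; each ratio already sets a tumour against the liver of its own animal. Noise limits what short losses could be seen, most in tumours 9 and 11.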
